A study of Mus musculus with 21 samples.

Results

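Livers of Mdr2 knockout (KO) mice were compared with livers of control mice 2 days after surgical removal of 30% of the organ. Of the 21 arrays of the series, 6 belonged to this comparison. They were 3 KO arrays from mice 250, 254 and 258 and 3 control arrays from mice 263, 264 and 265, chosen by genotype and day as the labels give them. All were males aged 9 months, and every mouse of either genotype had undergone the resection. The KO mice carried the strain label FVB129P2 and the control mice the label FVB129P2/FVBNJ, so the genotype and the strain background cannot be told apart. Each array measured total RNA of 1 liver with 22690 probe sets. Livers on day 0 (the lobe removed at surgery) and on day 6 entered the same model and are set beside the day 2 values at the end. Values are GCRMA signals on a log2 scale, so a difference of 1 is a change of 2-fold, and differences are KO minus control with their standard error (SE).

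Mdr2, encoded by Abcb4, is the canalicular transporter that moves phosphatidylcholine into bile. Without it, bile salts are not buffered by phospholipid, bile ducts and the surrounding hepatocytes are injured, and mouse liver develops chronic inflammation, fibrosis and later tumours. Partial resection normally drives the remaining hepatocytes back into the cell cycle, and in the first days the remnant liver takes up fatty acid from the blood while its metabolic genes are temporarily turned down.

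The 6 arrays were not of equal quality. Gapdh control probe sets near either end of the transcript read alike when RNA is intact, and their 3' minus 5' difference was 0.23, −0.08 and 0.03 in KO 250, 254 and 258, against 1.58, 0.07 and 9.5 in control 263, 264 and 265. For beta-actin the difference was 1.94, 1.56 and 1.48 in KO, against 3.91, 1.81 and 5.92 in control. Control 265 and, less so, control 263 therefore stood apart from the other 4 arrays. The median SD of a gene was 0.240 in KO and 0.475 in control, and the mean pairwise correlation across tested genes was 0.970 in KO and 0.906 in control. Results are therefore also given without control 263 and 265 (and KO 337 of day 0, which had a difference of 2.03). That leaves control 264 as the single control of day 2, assumed to vary like the other groups. Albumin (Alb) lay between 14.95 and 15.03 in KO and between 14.66 and 14.94 in control, so the label liver was borne out on all 6 arrays. Between the genotypes, none of 18 tested genes for proteins secreted by hepatocytes passed the test.

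**Figure D1:**
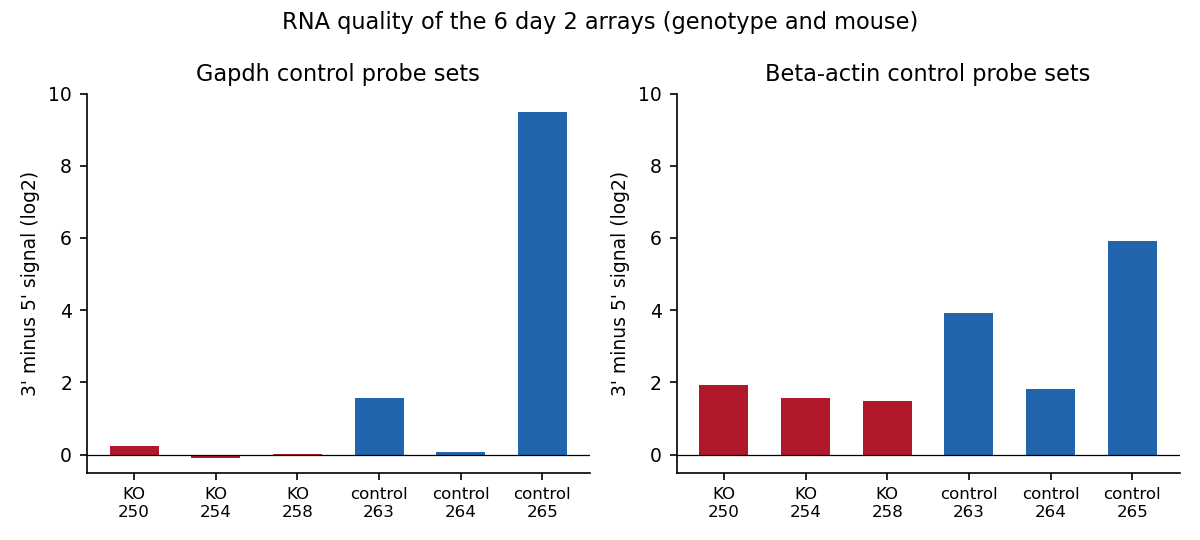
The bars give the 3' minus 5' signal difference (log2) of the Gapdh (left) and beta-actin (right) control probe sets for each day 2 array, KO in red and control in blue. Control 265 reaches 9.5 for Gapdh and control 263 reaches 1.58, while the other 4 arrays lie between −0.08 and 0.23.

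Abcb4 itself was 8.03, 7.88 and 7.89 in KO 250, 254 and 258, against 9.23, 10.33 and 10.22 in control 263, 264 and 265. All KO arrays lay below all control arrays, but signal remained in KO. No label places this probe set inside or outside the targeted exons. The difference was −1.99 ± 0.33 (SE, n = 3 each, limma adjusted p = 0.00266). It held without any single array. Here and below, the SE and adjusted p rest on 1 spread per gene, shared by all 6 groups of the series. Control on day 2 varied more than KO, so the SE can be too small and the p too low.

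In all, 418 of 7320 tested genes (5.71%) passed an adjusted p of 0.05 in the limma model. In KO, 201 (2.75%) were higher and 217 (2.96%) were lower, and 279 of the 418 differed at least 2-fold. Differences of at least 4-fold were mostly rises, with 74 genes higher and 18 lower. The median difference over all tested genes was −0.03, and 3434 of the 7320 differences were positive. Under quantile normalization the split of the calls was 189 higher and 325 lower. The shares of 2.75% higher and 2.96% lower are the background for every gene list below. List counts cover only members with enough signal to be tested. Arrays of either genotype counted for this, so a gene with signal in 1 genotype alone could enter. The direction of such a gene is partly set by its entry. The same holds for the medians and positive counts of lists with such genes. The values of KO and control did not overlap for 1474 genes (20.1%), and 402 of these were among the 418. The count rested on single arrays: it was 72 without KO 254, 118 without KO 258, 255 without control 265 and 1161 without control 264. Without control 263 and 265 it was 36, of which 30 were also called with all arrays, and in a fit of the 6 arrays alone it was 18. Genes called in each fit that left out 1 of the 6 arrays numbered 59, with 37 higher and 22 lower in KO. The paragraphs on the largest rises and falls start from these 59. Of the 103 called genes that are named here, 40 held without any single array, while 62 lost the call without KO 254, 48 without KO 258, 38 without control 265, 27 without control 263, 23 without KO 250 and 7 without control 264. Where a gene is said to hold, it is 1 of the 40, and most called genes in the gene groups are not among them.

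The largest of the 37 rises was Lpl, lipoprotein lipase, which frees fatty acids from circulating triglyceride. Lpl was 9.46, 11.95 and 10.07 in KO 250, 254 and 258, against 5.74, 5.47 and 6.22 in control 263, 264 and 265, a difference of 4.68 ± 0.78 (adjusted p = 0.00266). Cd36, the fatty acid and oxidised lipoprotein receptor, was 9.32, 10.39 and 10.35 in KO, against 5.56, 7.29 and 6.72 in control (3.50 ± 0.61, adjusted p = 0.00399). The lowest KO value of each lay more than 2 log2 units above the highest control value. Casp12, the endoplasmic reticulum-associated caspase, was 7.86, 9.07 and 8.35 in KO, against 4.89, 3.05 and 4.01 in control (4.44 ± 0.42, adjusted p = 7.45e-06). Anxa5, the phosphatidylserine-binding annexin, was 10.23, 11.57 and 11.59 in KO, against 6.96, 7.81 and 7.73 in control (3.63 ± 0.36). Neither overlapped, and KO 250 was the lowest KO array for both.

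Gipc2, a PDZ-domain adaptor, was 6.64, 7.75 and 7.15 in KO, against 3.56, 3.56 and 3.59 in control (3.61 ± 0.29, adjusted p = 1.15e-06). Smoc2, a secreted calcium-binding matrix protein, was 5.93, 7.24 and 6.92 in KO, against 2.24, 2.78 and 3.41 in control (3.89 ± 0.50). Olig1, a transcription factor best known from oligodendrocytes, was 6.28, 6.91 and 8.31 in KO, against 3.34, 2.99 and 3.03 in control (4.05 ± 0.59). In control these genes lay under 4 on every array, the low-signal range of the array, so the size of these differences is limited by how low a signal can be read. Bicc1, an RNA-binding protein of ciliated epithelia, was in the same position (3.31 ± 0.43, with control values between 3.39 and 3.87). Others with a clear signal in control were the detoxifying transferase Gstm3 (3.46 ± 0.58), the keratan sulphate proteoglycan Omd (3.24 ± 0.44), the interferon-inducible Ifi27l2b (3.14 ± 0.61) and Uap1l1 (3.21 ± 0.55). Named after their values were seen, the zinc importer Slc39a4 (2.71 ± 0.32), the transcription factor Sox4 (3.12 ± 0.57), the TGF-beta receptor Tgfbr2 (2.39 ± 0.39), the phosphatidylserine-binding bridging protein Mfge8 (1.74 ± 0.31), the lysosomal Hexa (2.17 ± 0.38) and the sulphotransferase Sult1a1 (1.37 ± 0.22) also rose without any single array.

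Among the falls, Cyp4a14, the fatty acid omega-hydroxylase and a target of PPAR alpha, was 4.56, 2.67 and 2.79 in KO 250, 254 and 258, against 9.61, 12.19 and 8.33 in control 263, 264 and 265 (−6.70 ± 1.22, adjusted p = 0.00554). Asns, asparagine synthetase, was 2.97, 2.74 and 3.15 in KO, against 5.99, 7.14 and 8.57 in control (−4.28 ± 0.70, adjusted p = 0.00250). Asns was in the low-signal range on all 3 KO arrays and well above it on all 3 control arrays. Cd163, the haemoglobin scavenger receptor of Kupffer cells and other tissue macrophages, was 2.66, 2.52 and 2.69 in KO, against 6.84, 7.87 and 6.95 in control (−4.60 ± 0.34, adjusted p = 3.50e-07). Capn8, a stomach-type calpain, was 2.26, 2.29 and 2.29 in KO, against 7.98, 5.68 and 9.07 in control (−5.30 ± 0.74). Dct, dopachrome tautomerase of the melanin pathway, was 2.01, 1.97 and 2.00 in KO, against 7.13, 5.83 and 6.17 in control (−4.38 ± 0.66). Cd163, Capn8 and Dct were likewise in the low-signal range in KO, and their KO values differed by less than 0.2 between mice. Susd4, a complement inhibitor with male-biased expression in mouse liver, was 2.71, 2.61 and 2.61 in KO, against 7.92, 6.37 and 4.32 in control (−3.56 ± 0.59).

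E2f8, an atypical E2F that represses cell cycle genes and promotes hepatocyte polyploidy, was 4.52, 4.60 and 3.87 in KO, against 6.22, 6.99 and 8.23 in control (−2.82 ± 0.41, adjusted p = 0.000919). Dna2, a nuclease-helicase of replication and end resection, was 5.77, 5.99 and 5.64 in KO, against 7.16, 7.08 and 8.05 in control (−1.63 ± 0.33). For both, control 265 was the highest array and the groups did not overlap. Named after their values were seen, the checkpoint clamp subunit Hus1 (−1.29 ± 0.26), the ribonuclease H2 subunit Rnaseh2c (−1.23 ± 0.20) and the mitochondrial RNA polymerase Polrmt (−1.03 ± 0.19) fell too. The other probe set of Polrmt gave 0.21 ± 0.25 (adjusted p = 0.633). Those of Rnaseh2c gave −1.56 ± 0.29 (adjusted p = 0.00686) and 0.06 ± 0.61 (adjusted p = 0.967). Further falls were the Rab GTPase Rab30 (−2.79 ± 0.50), the ectonucleotidase Enpp3 (−2.21 ± 0.41) and the pro-apoptotic BH3 protein Bik (−2.05 ± 0.41). Other large changes depended on 1 KO array or more. The prostaglandin synthase Ptgds rose (3.68 ± 0.79), and the membrane-associated Plekhb1 (−2.42 ± 0.50), the glycosyltransferase Ugt3a1 (−2.36 ± 0.53) and, named after its values were seen, the phosphate and urate transporter Slc17a1 (−1.90 ± 0.42) fell, but each call was lost without KO 254 and without KO 258. Across all 18 fits that were run, Anxa5, Casp12, Gipc2, Slc39a4 and Smoc2 (higher) and Cd163 (lower) were called in every one.

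The promoters of 4 of these genes are shown because each heads the rises or falls of its gene group in the sections that follow. They are the 250 bases before the start given by RefSeq (build GRCm38.p6), 5′ to 3′ on the strand of the gene, and capitals mark every match on either strand to 1 of 6 sequences that were searched. These were TGATGNAAN (the C/EBP-ATF composite element of amino acid response genes), the direct repeat 1 bound by PPAR alpha, TGACNNNGC (the core of the antioxidant response element), TATAAA (the TATA box of core promoters), CCAAT (the site of the factor NF-Y) and CACGTG (an E box, bound by MYC and clock factors).
Asns (chr6:7693210-7693459, minus strand): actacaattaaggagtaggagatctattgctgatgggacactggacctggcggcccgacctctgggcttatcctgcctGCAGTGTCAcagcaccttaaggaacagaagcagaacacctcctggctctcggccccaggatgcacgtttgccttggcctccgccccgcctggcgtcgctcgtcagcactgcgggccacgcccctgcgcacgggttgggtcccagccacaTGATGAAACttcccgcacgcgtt
Got1 (chr19:43524606-43524855, minus strand): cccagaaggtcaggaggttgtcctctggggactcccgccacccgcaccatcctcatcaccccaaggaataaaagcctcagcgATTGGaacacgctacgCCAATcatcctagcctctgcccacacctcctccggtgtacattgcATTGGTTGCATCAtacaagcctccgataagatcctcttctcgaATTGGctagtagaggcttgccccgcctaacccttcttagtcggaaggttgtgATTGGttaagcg
Casp12 (chr9:5345226-5345475, plus strand): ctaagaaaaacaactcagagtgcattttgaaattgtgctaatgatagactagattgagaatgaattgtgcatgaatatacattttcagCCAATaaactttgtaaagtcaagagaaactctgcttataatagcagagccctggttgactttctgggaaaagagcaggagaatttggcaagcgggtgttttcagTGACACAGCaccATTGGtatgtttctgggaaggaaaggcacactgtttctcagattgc
Cd163 (chr6:124304401-124304650, plus strand): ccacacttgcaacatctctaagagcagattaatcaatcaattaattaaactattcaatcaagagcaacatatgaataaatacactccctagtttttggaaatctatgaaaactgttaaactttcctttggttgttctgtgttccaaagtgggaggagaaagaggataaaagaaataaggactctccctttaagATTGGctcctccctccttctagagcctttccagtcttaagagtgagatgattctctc

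In Asns the composite element lay 23 to 15 bases before the start, on the strand of the gene, and the other capitals mark an antioxidant-type core on the opposite strand. Got1 held the composite element 103 to 95 bases before its start on the opposite strand, overlapping 1 of its 5 CCAAT boxes. Asns fell and Got1 rose, so the promoters that hold this element belonged to genes that moved in opposite directions. Casp12 held an antioxidant-type core and 2 CCAAT boxes, and Cd163 held 1 CCAAT box. Of 32851 promoters in the table, 3.44% held the composite element, 10.2% the antioxidant core, 33.8% a CCAAT box, 12.4% TATAAA, 6.02% the E box and 0.0335% the direct repeat. A promoter was in the table for 38 of the 59 genes called without any single array. Of these, 2 held the composite element, 4 the antioxidant core, 19 a CCAAT box, 4 TATAAA, and none the E box or the direct repeat. A gene counted here if any of its promoters matched, whereas the shares are of single promoters. Counts and shares are therefore not directly comparable. Matches describe the letters of these windows and are not evidence of binding.

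Of 38 tested genes of fatty acid oxidation and PPAR alpha targets, 8 fell, none rose and 30 did not pass, against 2.96% of all genes that fell. The median difference was −0.72, compared with −0.03 over all genes, and 9 of the 38 were positive. Besides Cyp4a14, the acyl-CoA thioesterase Acot1 was 5.69, 4.51 and 6.68 in KO 250, 254 and 258, against 7.37, 11 and 10.05 in control 263, 264 and 265 (−3.85 ± 1.06, adjusted p = 0.0398). The carnitine-acylcarnitine carrier Slc25a20 was 10.29, 9.78 and 10.40 in KO, against 11.69, 11.29 and 11.49 in control (−1.33 ± 0.22, adjusted p = 0.00250). Control values of Slc25a20 were close together, whereas those of Acot1 spread over more than 3 log2 units. The thioesterase Acot3 (−3.18 ± 0.82) and the carnitine importer Slc22a5 (−2.08 ± 0.57) fell as well. So did 3 genes named after their values were seen, the carnitine palmitoyltransferase Cpt2 (−1.02 ± 0.25), the trifunctional protein subunit Hadhb (−0.93 ± 0.21) and the enoyl-CoA isomerase Eci2 (−1.08 ± 0.26). Cyp4a14 and Slc25a20 held without any single array. The other probe set of Slc25a20 gave −0.45 ± 0.30 (adjusted p = 0.354). Those of Slc22a5 (−0.23 ± 0.66, adjusted p = 0.858) and Hadhb (−0.52 ± 0.27, adjusted p = 0.238) did not pass either. The number of falls was 2 without KO 254, 3 without control 265, 4 without KO 258, 5 without KO 250 and 11 without control 263, and without control 263 and 265 the median was −1.03 with 3 falls. Control 264 had the highest mean of the list among controls (1.295 after centring each gene on its mean over all arrays, compared with 0.276 in 263 and 0.218 in 265), and the 3 KO arrays lay at −0.061, −0.498 and −0.245.

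Of 21 genes of lipid uptake and droplets, 3 rose and none fell, beside 2.75% of all tested genes that rose. They were Lpl, Cd36 and Abhd5, the activator of adipose triglyceride lipase (1.38 ± 0.38, adjusted p = 0.0394). The other probe set of this gene gave −0.41 ± 0.34 (adjusted p = 0.470), so its probe sets differed in sign. The median of the list was −0.09, and 10 of the 21 differences were positive. Plin2, the main protein of hepatocyte lipid droplets, was 11.24, 11.15 and 11.98 in KO, against 12.08, 12.80 and 12.42 in control and did not pass (−0.98 ± 0.40, adjusted p = 0.146). Of 21 fatty acid synthesis genes none passed, with Fasn, fatty acid synthase, at 1.99 ± 0.62 (adjusted p = 0.0621). Of 19 cholesterol synthesis genes none passed either, and Fdps had the smallest p (1.92 ± 0.67, adjusted p = 0.0923).

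**Figure D2:**
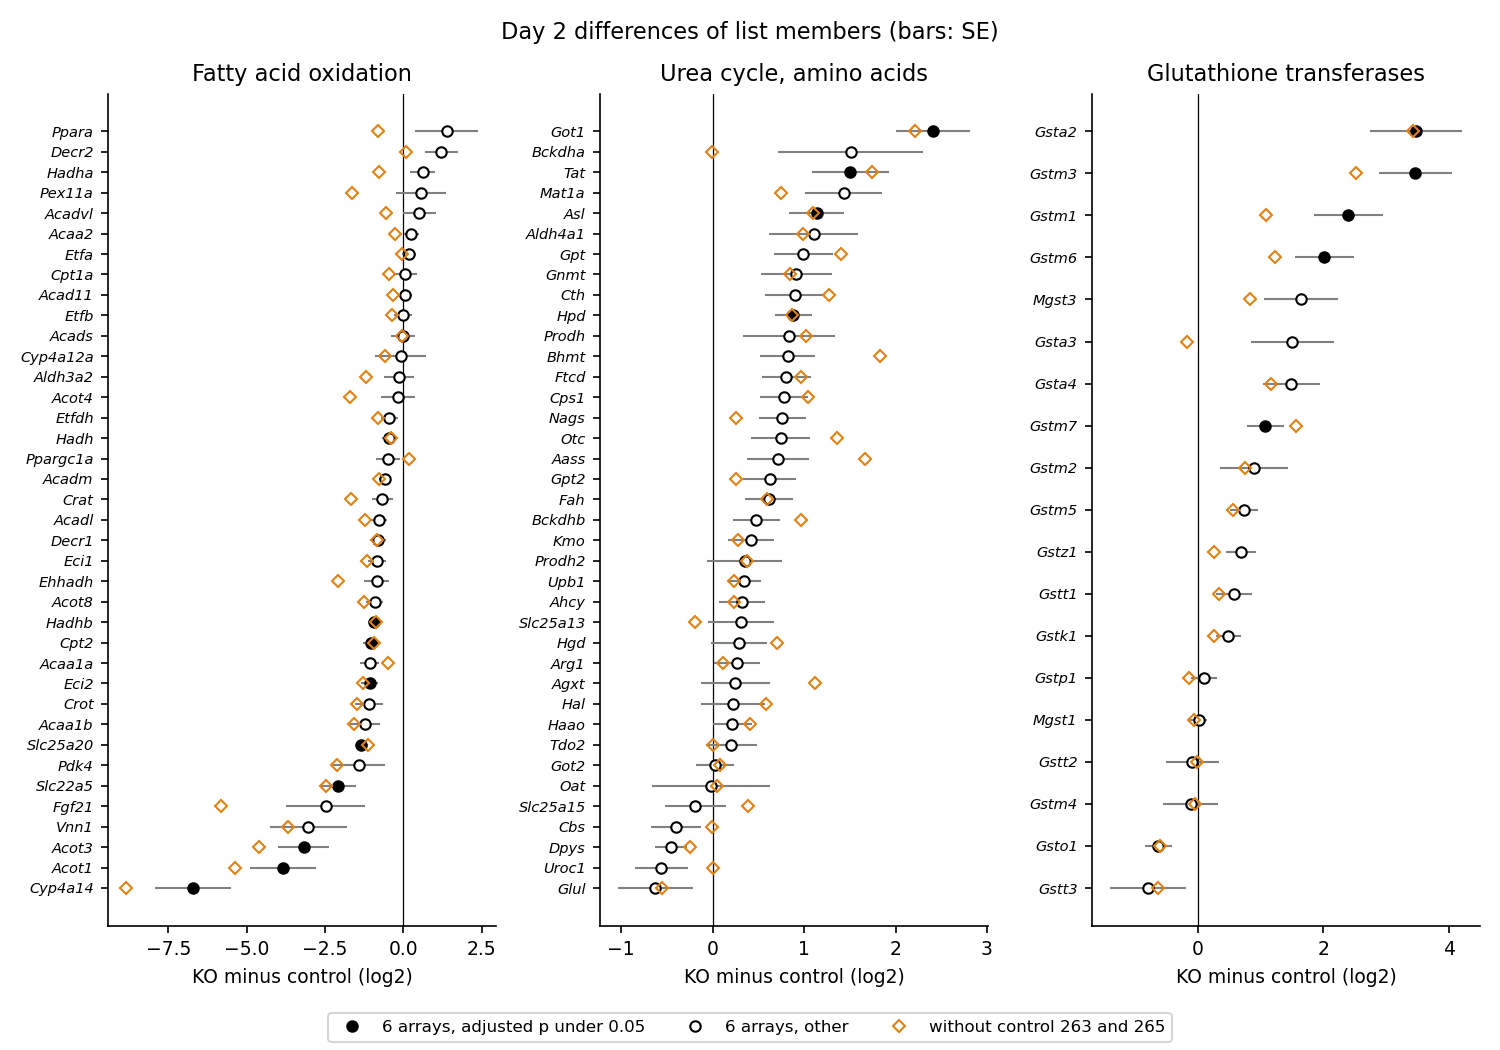
Each row is a gene of a list and the x axis is the KO minus control difference on day 2 (log2); circles with SE bars use all 6 arrays, filled where the adjusted p was under 0.05, and orange diamonds leave out control 263 and 265. Fatty acid oxidation genes run from Cyp4a14 at −6.70 upwards with 9 of 38 above 0, while 32 of 38 genes of amino acid breakdown lie above 0 and Gsta2 and Gstm3 head the transferases.

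Of 38 tested genes of amino acid breakdown and the urea cycle, 4 rose, none fell and 34 did not pass, compared with 2.75% of all genes that rose. The differences of 32 of the 38 were positive and the median was 0.55. Got1, the cytosolic aspartate aminotransferase, was 11.25, 9.99 and 11.15 in KO 250, 254 and 258, against 7.99, 8.58 and 8.59 in control 263, 264 and 265 (2.41 ± 0.41, adjusted p = 0.00294). Hpd, which degrades tyrosine, was 13.97, 13.50 and 13.43 in KO, against 12.80, 12.77 and 12.68 in control (0.88 ± 0.20, adjusted p = 0.0202). The control values of Hpd lay within 0.2 of each other, including those of 263 and 265. Tat, tyrosine aminotransferase (1.51 ± 0.42), and Asl, argininosuccinate lyase of the urea cycle (1.14 ± 0.30), rose too. Without control 263 and 265 the median was 0.59, and the number of rises was 1 without KO 250 or KO 254 and 10 without control 263. Got1 held without any single array. Of 12 genes with periportal expression, where urea synthesis is concentrated, 3 rose (Cdh1, Cyp2f2 and Asl), 11 were positive and the median was 0.79. Of 17 pericentral genes 1 fell, Tbx3 (−1.72 ± 0.35, adjusted p = 0.0102), a transcription factor of the pericentral zone, and the median was −0.36. Cyp2f2, a cytochrome P450 of liver and airway, at 13.27, 13.18 and 13.27 in KO, against 12.74, 11.89 and 10.21 in control, was the 1 rise among 25 cytochrome P450 genes of families 1 to 3 (1.63 ± 0.44, adjusted p = 0.0367). Its lowest value was that of control 265. Leaving out KO 254 ended all 3 periportal calls.

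Glutathione transferases conjugate electrophiles to glutathione. Of 19 tested, 5 rose and none fell, with a median of 0.74, compared with 2.75% of all tested genes that rose. Gsta2 was 10.30, 11.44 and 10.30 in KO, against 8.21, 7.26 and 6.14 in control (3.48 ± 0.73, adjusted p = 0.0131). Gstm3 was 10.69, 11.18 and 10.61 in KO, against 7.68, 8.30 and 6.12 in control (adjusted p = 0.00289). Gstm1 was 13.05, 13.53 and 12.81 in KO, against 11.35, 12.05 and 8.79 in control (2.40 ± 0.55, adjusted p = 0.0189). Control 265 was the lowest array for each of these, and the list mean after centring was −2.09 in 265, against −0.85 in 263 and −0.95 in 264. The part of its RNA quality in these differences was not tested. Without control 263 and 265 the list median was 0.34 and no transferase was called. In that fit the differences were 3.42 for Gsta2, 2.53 for Gstm3, 1.56 for Gstm7, 1.23 for Gstm6 and 1.08 for Gstm1. Gstm6 (2.01 ± 0.47) and Gstm7 (1.08 ± 0.29) also rose; the Gstm genes are near-identical copies, and their probe sets may share signal. The number of rises was 1 without KO 254, 3 without KO 250, KO 258 or control 265, and 9 without control 264. Of 24 other redox genes under NRF2, 1 rose, the lipid peroxide reductase Gpx4 (1.49 ± 0.37, adjusted p = 0.0265), and the median was 0.15, or −0.22 without control 263 and 265.

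Genes of the ATF4 amino acid response are switched on when amino acids are short. Of 28 tested, 2 fell, 1 rose and the median was −0.03. Asns, described above, and Psat1, the serine synthesis aminotransferase, fell. Psat1 was 2.83, 2.67 and 2.71 in KO, against 3.22, 5.84 and 5.03 in control (−1.96 ± 0.46, adjusted p = 0.0216), so control 263 lay near the KO arrays. Gars, the glycyl-tRNA synthetase, rose (0.87 ± 0.24, adjusted p = 0.0427). Of the 24 members with a promoter in the table, 8 held the composite element in at least 1 promoter. Among them were Asns and Gars, which moved in opposite directions. No gene passed among 25 chaperones of the endoplasmic reticulum, of which Pdia3 had the smallest p (1.97 ± 0.64, adjusted p = 0.0732), or among 21 heat shock chaperones, led by Hspa9 (0.62 ± 0.19, adjusted p = 0.0607). Of 27 genes of mitochondrial respiration 2 rose, Atp5b (1.07 ± 0.23) and Sdhc (0.79 ± 0.20), with a median of 0.05.

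Of 16 tested canalicular and sinusoidal transporters, the multidrug exporters Abcb1b and Abcb1a rose and Abcb4 fell. Abcb1b was 5.95, 7.63 and 7.72 in KO 250, 254 and 258, against 4.04, 4.30 and 5.54 in control 263, 264 and 265 (2.47 ± 0.46, adjusted p = 0.00624). Abcb1a was 5.85, 6.28 and 4.83 in KO, against 4.73, 3.64 and 3.58 in control (1.67 ± 0.43, adjusted p = 0.0323). The lowest KO array for Abcb1a was 258, only 0.1 above control 263. None of 19 genes of bile acid synthesis and its receptors passed, and the smallest p was that of Klb, the FGF15 co-receptor (−1.27 ± 0.38, adjusted p = 0.0565). Cyp7a1, which carries out the first and limiting step in making bile acids, was 10.01, 8.51 and 5.48 in KO, against 8.31, 8.49 and 3.24 in control, with a wide spread in both groups (1.32 ± 1.21, adjusted p = 0.534).

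Of 19 collagens on the array 14 had enough signal to be tested, and arrays of either genotype counted for this. Of the 14, 5 rose, none fell and all differences were positive, with a median of 1.498, compared with 2.75% of all tested genes that rose. Col1a1, the fibrillar collagen of scar, was 5.87, 8.93 and 10.10 in KO 250, 254 and 258, against 3.70, 5.89 and 4.62 in control 263, 264 and 265 (3.56 ± 1.02, adjusted p = 0.0479). KO 250 lay 0.02 below control 264, so the groups overlapped. The other probe set of Col1a1 gave 1.20 ± 0.62 (adjusted p = 0.225). Col1a2 was 6.14, 8.60 and 9.28 in KO, against 3.17, 5.58 and 4.31 in control (3.65 ± 0.89, adjusted p = 0.0257). Col4a5, a basement membrane collagen, was 6.18, 6.40 and 6.24 in KO, against 3.85, 3.58 and 3.88 in control (2.50 ± 0.45, adjusted p = 0.00485), and it alone of the 5 called collagens held without any single array. In control, Col4a5 was in the low-signal range on all 3 arrays. Col6a3 (2.39 ± 0.49) and Col18a1 (0.87 ± 0.23) rose too. The other probe set of Col18a1 gave −0.01 ± 0.25 (adjusted p = 0.986). The mean of the list after centring each gene was 0.17, 1.46 and 1.77 in KO, against −1.19, −0.37 and −0.46 in control, so every KO array stood above every control array. Without control 263 and 265 the median was 1.30 and no collagen was called. The number of rises was 1 without KO 254 or KO 258, 2 without control 263 or control 265, and 7 without control 264.

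Of 17 matrix proteoglycans and glycoproteins 5 rose and none fell, with a median of 0.94, beside 2.75% of all tested genes that rose. The median was 0.93 and none was called without control 263 and 265. Mgp, the calcification inhibitor, was 6.34, 8.64 and 7.38 in KO, against 3.41, 4.99 and 5.06 in control (2.97 ± 0.70, adjusted p = 0.0227). Lum, a collagen-binding proteoglycan, was 8.69, 8.92 and 8.88 in KO, against 4.54, 7.08 and 6.69 in control (2.73 ± 0.59, adjusted p = 0.0149). Lum was even across KO mice, unlike the fibrillar collagens. Nid1 (2.32 ± 0.52), Fbln5 (1.41 ± 0.35) and Bgn (1.35 ± 0.33) rose, and all 5 calls of this list were lost without KO 254 or without KO 258. Among 21 proteases, inhibitors and crosslinkers, Mmp12, the macrophage elastase, was 5.73, 6.02 and 6.51 in KO, against 3.38, 3.80 and 3.40 in control (2.56 ± 0.39, adjusted p = 0.00145). Mmp12 was in the low-signal range on every control array. The protease inhibitor Slpi rose as well (2.38 ± 0.54, adjusted p = 0.0182). Of 14 stellate cell and myofibroblast markers, Cygb (3.00 ± 0.86) and Tpm1 (1.47 ± 0.38) rose, 12 were positive and the median was 0.79. In whole liver, more stellate cells and more RNA per cell cannot be told apart, and this holds for every cell type below.

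Of 23 listed oncofetal and tumour-associated genes 14 were tested. Afp, Igf2, Gpc3, Dlk1, Igf2bp3, Mdk and Bex2 lacked the signal needed, and H19 and Spink3 were not on the array. Arrays of either genotype counted for this signal, so KO arrays could admit a gene that was low in control. Tff3 and Tspan8 were under 4 on every control array of day 2, and entry through KO favours a positive difference. Of the 14, 6 rose, none fell and 13 were positive, with a median of 1.83, beside 2.75% of all tested genes that rose. The median was 1.86 and 1 gene was called without control 263 and 265. Ubd, a ubiquitin-like modifier, was 6.11, 9.43 and 8.31 in KO 250, 254 and 258, against 2.55, 2.89 and 5.14 in control 263, 264 and 265 (4.42 ± 0.87, adjusted p = 0.00906). Tff3, a trefoil peptide, was 3.58, 7.14 and 5.45 in KO, against 2.52, 2.25 and 2.45 in control (2.98 ± 0.82, adjusted p = 0.0398). Golm1, a Golgi protein used as a tumour marker, was 6.39, 7.01 and 6.92 in KO, against 3.10, 3.53 and 5.88 in control (2.60 ± 0.49, adjusted p = 0.00683), and held without any single array. For Ubd and Tff3, KO 250 was again the lowest KO array, with Tff3 there in the low-signal range. Bex1 also rose (2.64 ± 0.70), as did Slpi and Tspan8, which other lists hold too. The number of rises was 1 without KO 254, 2 without KO 258, 3 without control 265 and 8 without control 264. Of 13 cholangiocyte and progenitor markers, Prom1 (2.35 ± 0.65), Cdh1 (1.78 ± 0.36) and Tspan8 (1.34 ± 0.33) rose, with a median of 0.83. Tspan8 was even in both groups, at 4.47, 4.23 and 4.20 in KO, against 2.96, 2.93 and 2.98 in control. Its control values were in the low-signal range and its KO values just above that range. Of 15 annexins and S100 proteins, Anxa5 and Anxa2 (2.26 ± 0.49, adjusted p = 0.0149) rose and the median was 0.11.

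Of 16 tested genes of caspases and apoptosis, Casp12, Casp4 and Casp1 rose and Bik fell. Over all tested genes 2.75% rose and 2.96% fell. Casp4, the caspase that senses lipopolysaccharide in the cytosol, was 4.69, 7.40 and 7.56 in KO, against 2.76, 2.89 and 3.77 in control (3.41 ± 0.65, adjusted p = 0.00721). Every control value of Casp4 was in the low-signal range. Casp1, which matures interleukin-1 beta, was 6.80, 7.15 and 7.29 in KO, against 4.62, 5.04 and 4.58 in control (2.33 ± 0.49, adjusted p = 0.0128). Both groups were separate for each, and KO 250 was the lowest KO array for each of the 3 caspases. Bik was 4.09, 3.87 and 3.53 in KO, against 6.17, 5.69 and 5.78 in control. The median of the list was 0.16, and 9 of the 16 differences were positive.

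Of 19 Kupffer cell markers only Cd163 passed and the median was 0.14. Over all tested genes 2.75% rose and 2.96% fell. Of 22 markers of recruited myeloid cells, Ms4a7 (2.25 ± 0.61, adjusted p = 0.0381) and Clec7a, the beta-glucan receptor dectin-1 (2.07 ± 0.41, adjusted p = 0.00994), rose, 21 were positive and the median was 0.67, or 0.74 without control 263 and 265. Their mean after centring was −0.56, 0.29 and 0.93 in KO 250, 254 and 258, against −1.09, −0.63 and −0.42 in control 263, 264 and 265, so KO 250 lay within the control range. Clec7a was 5.98, 7.13 and 6.36 in KO, against 4.95, 4.01 and 4.30 in control. Of 15 chemokines and cytokines, Ccl9 rose (1.5 ± 0.40, adjusted p = 0.0347). Of 15 antigen presentation genes none passed. KO and control did not overlap for 7 of the 15, compared with 20.1% of all tested genes. H2-Aa, an MHC class II chain, had the smallest p. H2-Aa was 8.63, 8.81 and 9.31 in KO, against 6.81, 6.29 and 4.26 in control (3.13 ± 0.95, adjusted p = 0.0585). Named after their values were seen, the invariant chain Cd74 was 9.12, 9.24 and 9.62 in KO, against 7.18, 6.58 and 6.27 in control (2.65 ± 0.92, adjusted p = 0.0920), and H2-Ab1 was 7.53, 7.68 and 8.01 in KO, against 5.98, 5.63 and 4.57 in control (2.35 ± 0.95, adjusted p = 0.140), while the class II gene H2-DMa gave 0.86 ± 0.75 (adjusted p = 0.515). None of 28 interferon-stimulated genes passed (median 0.20, smallest p for Bst2, 1.17 ± 0.41, adjusted p = 0.0939). None of 23 acute phase genes passed (median −0.04). Saa1, serum amyloid A, was near the top of the scale on all arrays, from 14.63 to 14.91 in KO and from 14.80 to 15.03 in control.

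Of 22 tested endothelial markers, the caveolins Cav1 (2.63 ± 0.53, adjusted p = 0.0102) and Cav2 (2.58 ± 0.58, adjusted p = 0.0176) rose. The lymphatic and sinusoidal receptor Flt4 (−1.30 ± 0.35, adjusted p = 0.0367) and the sinusoidal ligand Bmp2 (−1.25 ± 0.34, adjusted p = 0.0368) fell, and the median was −0.60. Cav1 was 6.94, 8.65 and 8.21 in KO, against 5.54, 4.87 and 5.50 in control. Flt4 was 5.75, 5.93 and 5.94 in KO, against 7.04, 6.89 and 7.59 in control. Caveolins are made by other cell types too. Over all tested genes 2.75% rose and 2.96% fell. All 4 endothelial calls were lost without KO 254. Other cell types left few tested markers: 3 of neutrophils, 3 of lymphocytes, 2 of erythroid cells, 2 of mesothelium, 1 of pancreas and none of adipose tissue or skeletal muscle, with no call among them. The 2 mesothelium markers averaged 1.17, −1.06 and −1.01 after centring in KO 250, 254 and 258, against 1.41, 1.15 and 1.13 in control 263, 264 and 265. KO 250 was thus with the controls for this list, and lower than the other KO arrays for collagens and myeloid markers. The part of sampled tissue in this was not tested. The neutrophil protein gene S100a8 was 5.48, 6.53 and 8.69 in KO, against 7.45, 8.77 and 10.85 in control and did not pass (−2.12 ± 1.0, adjusted p = 0.202).

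**Figure D3:**
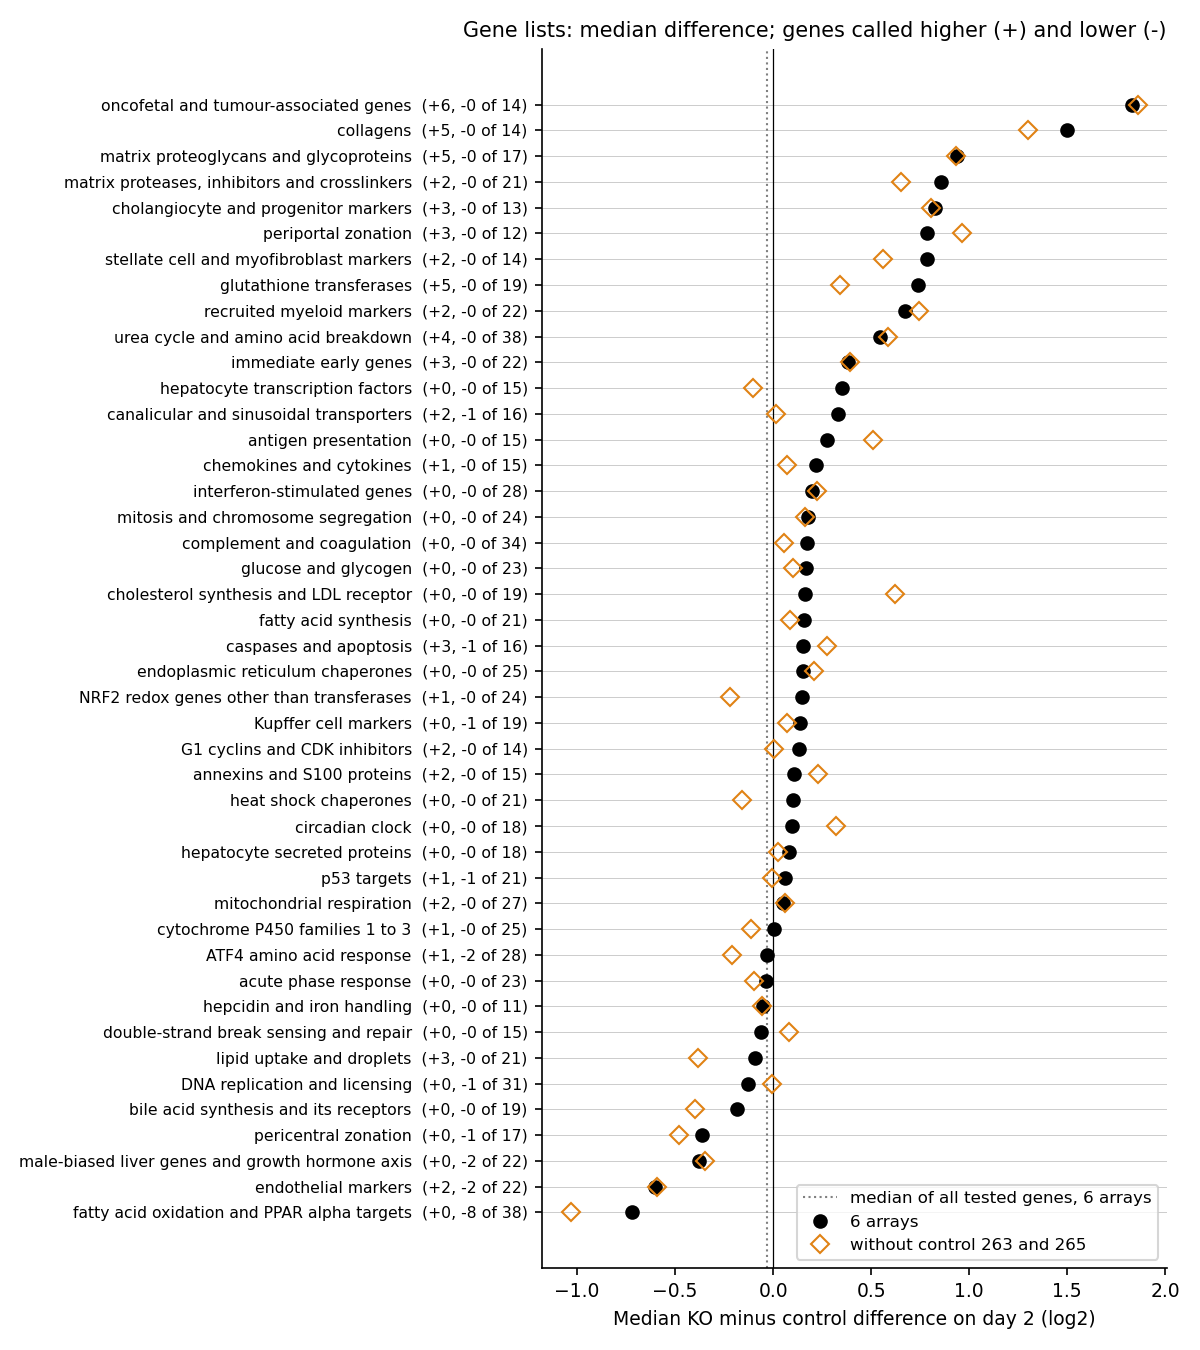
Each row is a gene list with at least 11 tested genes, and the x axis is the median KO minus control difference on day 2 (log2), with all 6 arrays (black) and without control 263 and 265 (orange); counts of genes called higher and lower stand after each name. Oncofetal and tumour-associated genes (1.83) and collagens (1.498) lie farthest right and fatty acid oxidation (−0.72) farthest left. Some lists near 0, such as hepatocyte transcription factors (0.35 and −0.10), change sign when the 2 arrays are left out.

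Of 31 genes of DNA replication 1 fell, the flap endonuclease Fen1, at 7.43, 7.28 and 7.31 in KO, against 8.20, 7.64 and 8.26 in control (−0.69 ± 0.18, adjusted p = 0.0345). For Fen1 the other probe set gave −0.20 ± 0.29 and did not pass (adjusted p = 0.703). Leaving out KO 250, KO 254, KO 258, control 263 or control 265 each ended the call of Fen1. None of 24 mitosis genes passed (median 0.18, smallest p for Smc4, 1.86 ± 0.84, adjusted p = 0.183). The proliferation marker Mki67 was 3.13, 3.10 and 5.03 in KO, against 3.14, 3.27 and 4.35 in control, and Cdk1 was 4.56, 3.36 and 4.90 in KO, against 3.38, 3.83 and 3.39 in control. Mcm5, a subunit of the replicative helicase, was at or under 2.89 on all 6 arrays, and Mcm6 was 6.13, 4.53 and 4.96 in KO, against 2.94, 3.53 and 4.95 in control (1.40 ± 0.58, adjusted p = 0.146). Most values of Mki67, Cdk1 and Mcm5 were in the low-signal range, where a difference may not be detectable. Of 14 G1 cyclins and CDK inhibitors, 2 rose. Cdkn2c, the inhibitor p18, was 7.05, 6.47 and 6.03 in KO, against 4.27, 4.26 and 4.36 in control (2.22 ± 0.43, adjusted p = 0.00802). Ccnd1, cyclin D1, was 9.2, 9.90 and 10.42 in KO, against 8.63, 8.82 and 5.75 in control (2.11 ± 0.57, adjusted p = 0.0371), with control 265 far below the rest. Without control 263 and 265 its difference was 1.02.

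None of 15 genes that sense or repair double-strand breaks passed, with a median of −0.06 and the smallest p for the kinase Atm (1.20 ± 0.44, adjusted p = 0.107). Of 21 p53 targets, Btg2 rose (3.21 ± 0.84, adjusted p = 0.0331), Perp fell (−0.68 ± 0.16, adjusted p = 0.0216) and the median was 0.06. The other probe set of Btg2 gave 0.98 ± 0.79 (adjusted p = 0.450). Cdkn1a, the inhibitor p21, was 6.40, 9.54 and 9.93 in KO 250, 254 and 258, against 6.52, 8.97 and 8.26 in control 263, 264 and 265 (0.71 ± 0.99, adjusted p = 0.705). Its range within each genotype exceeded the difference between them. Of 22 immediate early genes, Btg2, Jun (2.24 ± 0.51, adjusted p = 0.0191) and Klf6 (1.65 ± 0.48, adjusted p = 0.0482) rose, 19 were positive and the median was 0.38. All 3 calls were lost without KO 254, without KO 258, without control 263 and without control 265.

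Further lists gave few calls or none. Of 22 male-biased genes and genes of the growth hormone axis, Susd4 and Mup5, a major urinary protein (−0.60 ± 0.16, adjusted p = 0.0386), fell, with a median of −0.38. Of 6 female-biased genes, Fmo2 rose (2.10 ± 0.60, adjusted p = 0.0467) and Acot3, which is also in the oxidation list, fell. The call of Fmo2 was lost without any 1 of the 6 arrays (adjusted p up to 0.161). No gene passed among 34 of complement and coagulation (Mbl1 −0.79 ± 0.23, adjusted p = 0.0527), 23 of glucose and glycogen (Pygl 0.59 ± 0.21), 15 hepatocyte transcription factors (Nr1h3 0.67 ± 0.29), 18 of the circadian clock (Hlf −1.21 ± 0.51) and 11 of iron handling (Bmp6 −0.64 ± 0.30). The phosphatidylcholine transfer protein Pctp fell outside these lists. It was 4.45, 5.11 and 4.86 in KO, against 7.43, 8.16 and 8.34 in control (−3.17 ± 0.85, adjusted p = 0.0368). Its other probe set gave −0.66 ± 0.65 (adjusted p = 0.544), and the call was lost without each of the 6 arrays but control 264. Actb, beta-actin, was 13.23, 13.62 and 13.79 in KO, against 12.85, 13.34 and 8.80 in control. The low value of control 265 in this abundant gene went with its beta-actin 3' to 5' difference of 5.92. With each probe set fitted by itself, this probe set of Actb gave 1.88 ± 0.77 and did not pass (adjusted p = 0.133). The other probe set of Actb gave −1.43 ± 0.32 (adjusted p = 0.0172). The probe sets thus differed in sign, and only the fall passed.

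The day 2 differences were set beside those of day 0, from partly the same mice, and of day 6. Of the 201 genes higher in KO on day 2, 102 were also called higher on day 0, when 6.79% of all tested genes were called higher. Of the 217 lower genes, 51 were also called lower on day 0, when 2.87% of all were. Both days share most of these mice and 1 estimate of the spread, so the counts are not independent. Among the genes called without any single array this held for 34 of 37 rises and 8 of 22 falls. The rises in Lpl (4.96 ± 0.68 on day 0, 4.68 ± 0.78 on day 2 and 2.90 ± 0.78 on day 6) and Casp12 (5.03 ± 0.36, 4.44 ± 0.42 and 5.71 ± 0.42) were thus present before the resection, and that of Lpl did not pass on day 6 (adjusted p = 0.0705). Cd163 was lower in KO on each day as well (−3.39 ± 0.29, −4.60 ± 0.34 and −4.10 ± 0.34). Asns differed by 0.00 ± 0.60 on day 0, −4.28 ± 0.70 on day 2 and −2.39 ± 0.70 on day 6. It averaged 2.92 ± 0.38 in KO livers on day 0 (SD, n = 6) and 2.92 ± 0.05 in control livers on day 0 (SD, n = 3), so it was in the low-signal range in both genotypes before surgery. Cyp4a14 differed by −0.92 ± 1.06 on day 0, −6.70 ± 1.22 on day 2 and −2.24 ± 1.22 on day 6. Gsta2 averaged 12.71 in KO and 12.10 in control on day 0, with a difference of 0.60 ± 0.63 there and 3.48 ± 0.73 on day 2. Hpd was lower in KO on day 0 (−0.65 ± 0.18, adjusted p = 0.0252) and higher on day 2 (0.88 ± 0.20).

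The change of the genotype difference was itself tested. No gene (0%) passed for day 2 against day 0, with 1070 of 7320 genes at an unadjusted p under 0.05, and none for day 2 against day 6, with 409 genes. The smallest adjusted p for day 2 against day 0 was 0.0733, the value for Hpd (1.53 ± 0.27) and Slpi (−3.85 ± 0.71) among others, and Asns had −4.28 ± 0.92 (adjusted p = 0.0839). The same mouse often gave the day 0 and the day 2 liver, and with mouse as a random block (replicate block) 8 genes passed for day 2 against day 0. Each had an adjusted p of 0.0461. Hpd (1.51 ± 0.26) and Klf1 (1.61 ± 0.27) had higher differences on day 2 than on day 0. Slpi, Faap20, Reep5, Il17rb, Cystm1 and Prune1 had lower ones. The sign of the genotype difference changed for Hpd, Faap20 (−0.77 on day 2 and 1.25 on day 0), Reep5 (−0.46 and 1.43), Il17rb (−1.27 and 2.02) and Prune1 (−0.11 and 1.51), and not for Klf1, Slpi or Cystm1. Without control 264 the count was 228, and without control 263 it was 74.

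**Figure D4:**
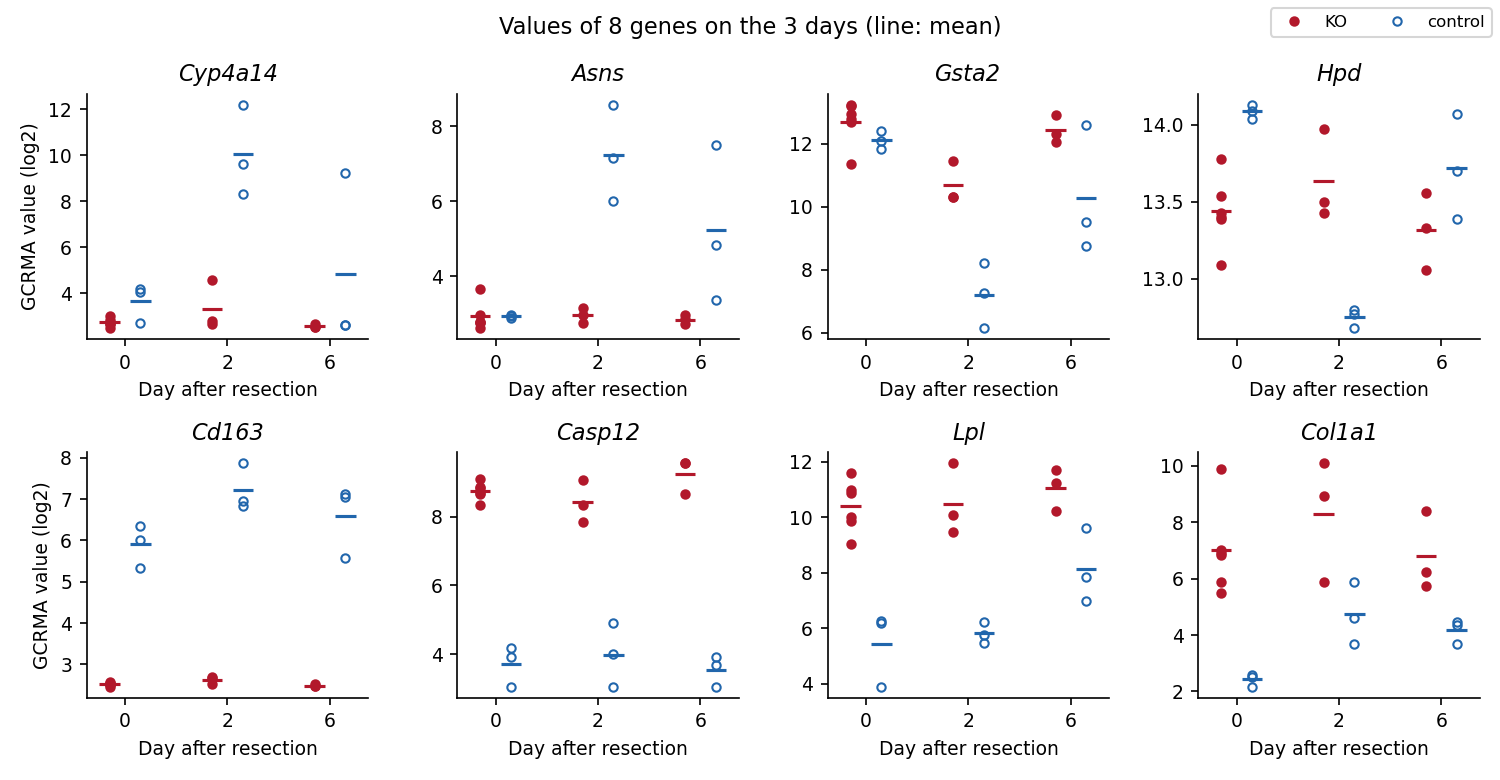
Each panel is a gene, with the day after resection on the x axis and the GCRMA value (log2) on the y axis; points are arrays, KO filled red and control open blue, and lines are group means. Cyp4a14 and Asns are high in the control livers on day 2 and low in every KO group, Gsta2 and Hpd are lowest in control on day 2, and the KO mean is lower for Cd163 and higher for Casp12, Lpl and Col1a1 on all 3 days.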

How the data were processed

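Liver RNA was hybridised to 1-colour oligonucleotide arrays. The deposited values are log2 signals that the authors made with GCRMA, per the submitters' processing notes; those notes give no version. Probe sets with 1 gene symbol (20380 of 22690) were kept, updated through Entrez IDs (20351 matched, no symbol changed), and the probe set with the highest mean stood for a gene. Genes above 4 in at least 3 arrays were tested (7320 of 12393). limma 3.58.1 in R 4.3.3 fitted 6 groups over 21 arrays, with moderated two-sided tests and Benjamini-Hochberg adjustment over all tested genes at 0.05. The fit was tested on simulated data in which every group had the same spread. That test does not cover the wider spread of control on day 2. Replicates are separate mice, and their number limits the precision. Gene lists, members and alternatives were chosen with earlier results of these data known. Named genes are the largest called rises and falls, the called genes of each list with the largest absolute change, and a few set genes. Where no gene of a list was called, the gene with the smallest p is named. For others the text says that they were picked with their values in view. Day 0 and later livers with the same mouse number come from 1 animal: over 9 such pairs the correlation of deviations from group means was −0.057 to 0.303, and the random block's correlation was 0.108.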

Additional observations from a re-analysis of the deposited data

Results flagged for a closer look

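The Gapdh 3' to 5' difference was 2.03 in KO 337 on day 0, far from the other 5 KO livers of that day, which lay between −0.2 and 0.12; the criterion for a far array is set so that it marks about 1 of 20 groups when nothing differs.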

How the results depend on the processing

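The count of 418 genes (201 higher, 217 lower) was 111 (65 and 46) with array weights, 18 (11 and 7) in a fit of the 6 arrays alone, 71 (46 and 25) with the beta-actin 3' to 5' difference as a covariate, and 36 (21 and 15) without control 263, control 265 and KO 337 of day 0. Leaving out 1 of the 6 arrays gave 72 to 1161 genes, 41 to 600 higher and 31 to 561 lower. For day 2 against day 0 the count of 0 became 4 without a filter, 10 with all probe sets of a gene averaged, 1 with quantile normalization, 2 with array medians centred, 1 with a robust trend, 1 with the beta-actin covariate, 2 without the arrays of high Gapdh difference, and 8 with mouse as a random replicate block, which gave 393 calls for day 2 itself; leaving out 1 array gave 0 to 228. For day 2 against day 6 it became 1 without the arrays of high Gapdh difference, and leaving out 1 array gave 0 to 13. None of the 103 called genes named here changed sign under any of these alternatives. For 33 of them the array held other probe sets, 42 in all. Of these, 38 had the same sign as the probe set used, 19 of them with a call, and 0 were called with the opposite sign. Among the named genes that were not called, the sign turned with the beta-actin covariate for Stat3 (−0.16), Smc4 (−0.54), Cdkn1a (−0.40), Cyp7a1 (−0.34), Alb (−0.051), Saa1 (0.41) and Actb (−0.48). Without the arrays of high Gapdh difference it turned for Nr1h3 (−0.0067), Atm (−0.24), Cela1 (0.11), Cdkn1a (−0.35) and Cyp7a1 (−0.49), and with array weights for Cyp7a1 (−0.49). Leaving out 1 array gave −0.96 to 0.11 for Cela1 (above 0 without control 263), −0.47 to 0.55 for Mki67 (below 0 without KO 258 and, at −0.06, without control 263) and −0.40 to 2.58 for Cyp7a1 (below 0 without control 265). The cause was not tested.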
